A study of Oryza sativa with 2 samples.

Results

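The carotenoid synthesis genes of rice are described here as 10 nuclear loci, chosen by their locus names as enzymes of the plastid route that leads to violaxanthin, out of 26715 loci in the expression table. They comprise 3 phytoene synthases, a phytoene desaturase, a zeta-carotene desaturase, a carotenoid isomerase, a lycopene cyclase, 2 beta-hydroxylases and a zeaxanthin epoxidase, and each of the 10 had a row. Leaf RNA was sequenced from the *wlp2s* mutant, a line from an ethyl methanesulfonate (EMS)-induced population of *japonica* rice cv. Zhonghua11, and from wild-type Zhonghua11. Seedlings of both genotypes were raised in 1/2 MS medium at a constant 32 °C with 12 h of light, so the heat was common to both groups. There was 1 library per genotype, and neither the number of plants behind a library nor the leaf position is stated, so no difference has a replicate check and no test between genotypes was possible. An EMS line can carry further mutations, and *wlp2s* itself is a single-base change in *WLP2*, a gene for a protein associated with the plastid-encoded RNA polymerase.

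Carotenoids are isoprenoid pigments made in plastids. Phytoene synthase joins a pair of geranylgeranyl diphosphate molecules into colourless phytoene, and desaturases and isomerases turn phytoene into red lycopene. Cyclases close the ends of lycopene to give carotenes, hydroxylases make xanthophylls such as zeaxanthin and lutein, and zeaxanthin epoxidase makes violaxanthin. In leaves these pigments harvest light and quench excess energy in the photosystems, and violaxanthin and neoxanthin are precursors of abscisic acid.

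Levels are given as RPKM, which is reads scaled to transcript length and to library size, summed over the transcript models of a locus. Counts summed to 9327778 in the mutant and 9080323 in wild-type. The ratio of a gene is its count in the mutant over that in wild-type, scaled to these totals, and the range in brackets is the exact 95% binomial (Clopper-Pearson) interval. Intervals cover counting error only, and they compare these libraries, not the genotypes. A gene passed the size rule where log2(RPKM + 1) differed by at least 1 between the mutant and wild-type, and this was asked of the 18639 loci that reached an RPKM of 1 in either library. Differences of weakly expressed genes are understated on this scale.

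The leaf origin of both libraries was visible in their Rubisco small-chain transcripts, which summed over 4 loci to 7476 RPKM in the mutant and 7424 RPKM in wild-type. Transcripts of 14 loci described as light-harvesting proteins summed to 9834 RPKM in the mutant against 12098 RPKM in wild-type, a ratio of counts of 0.814 (0.808 to 0.820). Intervals of 12 of the 14 lay below 1, against 15.4% of all loci tested. Intervals narrow with depth and most of the 14 are deeply read, so that share is not matched to them. The part of these light-harvesting transcripts in the values of the carotenoid genes was not tested. In whole leaves, fewer cells of a type and less RNA per cell cannot be told apart. Of the loci listed for other tissues, a MADS-box gene had 0.449 RPKM in the mutant and 0.293 RPKM in wild-type, and a root nitrate transporter 0 and 0.0191 RPKM. A NOD26-like channel, also listed for root, was expressed in both, with 6.86 RPKM (97 counts) in the mutant and 6.83 RPKM (94 counts) in wild-type. *WLP2* (LOC_Os01g63220) had 178 counts in the mutant and 126 in wild-type, a ratio of 1.38 (1.09 to 1.74). A single-base change need not alter the transcript level, so this value does not check the genotype of the library labelled as the mutant. No other value here checks it, so every ratio rests on the labels and column headings as given.

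Transcripts of the carotenoid synthesis genes were slightly lower in the mutant along most of the pathway. Of the 10 genes, 9 had a ratio below 1, as did 49.7% of all loci tested, and 1, the lycopene cyclase, had a ratio above 1. The lowest ratios were those of the beta-hydroxylases, which make zeaxanthin from beta-carotene. Each of the 10 passed the filter on low values, and 0 of the 10 passed the size rule, which 2.8% of all loci tested did, 1.79% as higher and 1.01% as lower in the mutant. The intervals of 6 of the 10, or 60%, lay wholly below 1, and 0 lay wholly above it. Over all loci tested, 15.4% of intervals lay wholly below 1 and 16.1% wholly above. Among the 13650 loci with at least 100 counts over both libraries, 18.3% lay below. Intervals narrow with depth, and most of the 10 had far more than 100 counts, so neither background share is matched to them in depth. Ratios of the 10 ranged from 0.629 to 1.09, with a median of 0.868 against 1.00 for all loci tested. The median log2 difference, taken as mutant minus wild-type on the log2(RPKM + 1) scale, was -0.20 over the 10 and 0.0018 over all loci tested. Added together, the 10 genes had 13579 counts and 688 RPKM in the mutant, against 15016 counts and 784 RPKM in wild-type, a ratio of counts of 0.880 (0.860 to 0.901). Zeaxanthin epoxidase alone gave 46.0% of these reads in the mutant and 47.7% in wild-type, and the ratio without it was 0.910 (0.881 to 0.939).

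**Figure D1:**
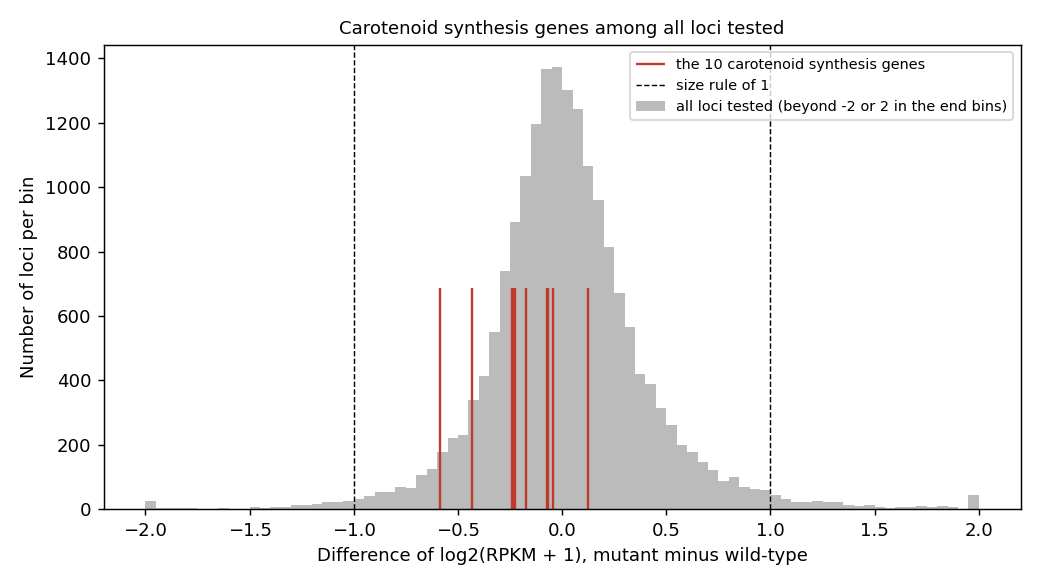
Number of loci (vertical axis) by log2 difference on the RPKM + 1 scale, the mutant minus the wild-type value (horizontal axis), for the 18639 loci tested (grey bars), with a red line for each of the 10 carotenoid synthesis genes and dashed lines at the size rule of 1 in either direction. The 10 genes lie between -0.58 and 0.12, inside the dashed lines, and 9 of them lie left of 0.

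The transcripts of the pathway differed far more from gene to gene than between the libraries. Zeaxanthin epoxidase, which adds epoxide groups to zeaxanthin, was the most abundant member in both, with 291 RPKM in the mutant and 345 RPKM in wild-type. That level was above those of 98.8% of the loci tested in the mutant and 99.1% in wild-type. The beta-hydroxylase LOC_Os03g03370 was the least abundant, with 5.50 RPKM in the mutant and 8.74 RPKM in wild-type. The highest level was 53.0 times the lowest in the mutant and 39.5 times the lowest in wild-type. The order of levels per length was epoxidase, phytoene synthase LOC_Os12g43130, zeta-carotene desaturase, phytoene synthase LOC_Os06g51290 and phytoene desaturase in both libraries, and 8 of the 10 genes held the same rank. The lycopene cyclase and the beta-hydroxylase LOC_Os04g48880 stood in places 6 and 7 in the mutant and in the reverse order in wild-type. Neighbours in the order did not differ beyond counting error for 2 of 9 neighbouring pairs in the mutant, namely LOC_Os12g43130 with the zeta-carotene desaturase and LOC_Os04g48880 with the carotenoid isomerase. In wild-type this held for 1 of 9, LOC_Os04g48880 with the lycopene cyclase.

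**Figure D2:**
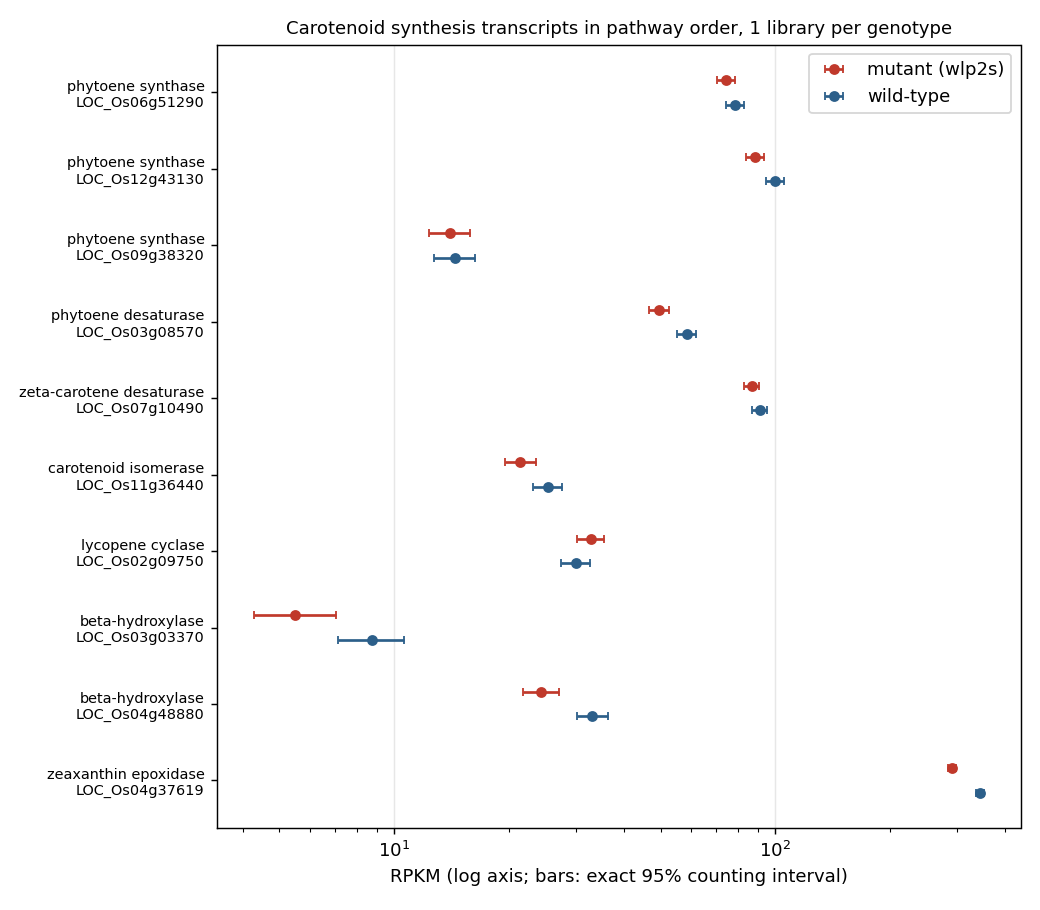
RPKM (horizontal log axis) of the 10 carotenoid synthesis genes in pathway order from top to bottom, in the mutant (red, upper point) and wild-type (blue, lower point), with exact 95% counting intervals as bars and 1 library per genotype. Zeaxanthin epoxidase is highest at 291 and 345 RPKM, the mutant point lies left of the wild-type point for 9 genes, and the lycopene cyclase, at 32.8 and 30.0 RPKM, is the exception.

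The entry to the pathway, phytoene synthase, is widely regarded as its main control point, and rice has several isoforms for it. LOC_Os06g51290 had 1316 counts and 74.4 RPKM in the mutant, against 1350 counts and 78.3 RPKM in wild-type. Its ratio of 0.949 (0.879 to 1.02) had an interval that included 1. LOC_Os12g43130 had 1254 counts and 88.6 RPKM in the mutant, against 1377 counts and 99.9 RPKM in wild-type, and its ratio of 0.887 (0.821 to 0.958) lay below 1. LOC_Os09g38320 was far weaker, with 256 counts in the mutant and 257 counts in wild-type, or 14.0 and 14.4 RPKM. Its ratio was 0.970 (0.812 to 1.16), so counting error alone leaves room for any ratio within that interval. The 3 isoforms together stood at a ratio of 0.922 (0.875 to 0.971).

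The isoforms held much the same portions of the phytoene synthase reads in both libraries. LOC_Os06g51290 had 46.6% of the reads in the mutant (44.7 to 48.4) and 45.2% in wild-type (43.4 to 47.0). LOC_Os12g43130 had 44.4% in the mutant (42.5 to 46.2) and 46.1% in wild-type (44.3 to 48.0). LOC_Os09g38320 had 9.06% in the mutant (8.03 to 10.2) and 8.61% in wild-type (7.63 to 9.68). The intervals of each isoform overlapped between the libraries. Per length, LOC_Os12g43130 was the leading isoform, with 50.1% of the summed RPKM in the mutant and 51.8% in wild-type. LOC_Os06g51290 was the member with the most transcript models, 4, with 17.4 to 19.4 RPKM each in the mutant and 18.6 to 20.6 RPKM each in wild-type. The ratios of these 4 models ran from 0.937 to 0.967, each with an interval that included 1. The counts of the 4 models are fractions that add up to whole numbers, 1316 in the mutant and 1350 in wild-type, so the models are not separate results.

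At the next steps, phytoene is desaturated in turn by phytoene desaturase and zeta-carotene desaturase, and carotenoid isomerase brings the product into the all-trans form of lycopene. Phytoene desaturase (LOC_Os03g08570) had 1069 counts and 49.5 RPKM in the mutant, against 1230 counts and 58.6 RPKM in wild-type, a ratio of 0.846 (0.779 to 0.919). Carotenoid isomerase (LOC_Os11g36440) had 456 counts and 21.5 RPKM in the mutant, against 523 counts and 25.3 RPKM in wild-type, a ratio of 0.849 (0.747 to 0.964). These intervals lay below 1. Zeta-carotene desaturase (LOC_Os07g10490) had 2017 counts and 86.7 RPKM in the mutant, against 2060 counts and 90.9 RPKM in wild-type, and its ratio of 0.953 (0.896 to 1.01) had an interval that included 1. The zeta-carotene isomerase LOC_Os12g21710, which acts between the desaturases and is not among the 10, had 320 counts in the mutant and 353 in wild-type, a ratio of 0.882 (0.756 to 1.03).

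Lycopene cyclase (LOC_Os02g09750), which closes the rings of beta-carotene, was the exception among the 10. It had 568 counts and 32.8 RPKM in the mutant, against 506.5 counts and 30.0 RPKM in wild-type. Its ratio of 1.09 (0.968 to 1.23) had an interval that included 1. The wild-type count is a fraction, so reads were divided at this locus. Relative to the summed phytoene synthase reads of the same library, lycopene cyclase stood 1.19 times higher in the mutant than in wild-type (1.04 to 1.35). This comparison needs no scaling of depth, but the pair was formed after the values were seen. The phytoene synthase sum itself had a ratio of 0.922. The other cyclase of the list, LOC_Os01g39960, described as a lycopene beta/epsilon cyclase, had 637 counts in the mutant and 580 in wild-type, a ratio of 1.07 (0.954 to 1.20). The reads of LOC_Os01g39960 per read of lycopene cyclase were 1.12 in the mutant and 1.15 in wild-type, and the ratio of these was 0.978 (0.827 to 1.16).

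The beta-hydroxylases, non-heme iron enzymes that hydroxylate the rings of beta-carotene, showed the lowest ratios of the 10. LOC_Os03g03370 had 66.7 counts and 5.50 RPKM in the mutant, against 103 counts and 8.74 RPKM in wild-type, a ratio of 0.629 (0.458 to 0.870). LOC_Os04g48880 had 335 counts and 24.3 RPKM in the mutant, against 445 counts and 33.1 RPKM in wild-type, a ratio of 0.733 (0.634 to 0.846). A further locus with the same description, LOC_Os10g38940, had 9.42 counts and 0.861 RPKM in the mutant, against 40.3 counts and 3.78 RPKM in wild-type. Its log2 difference of -1.36 passed the size rule, at a ratio of 0.228 (0.0935 to 0.459).

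The counts of these 3 loci are fractions, and they add up to whole numbers, 411 in the mutant and 588 in wild-type. They appear to share reads, so the value of each depends on how reads were divided and the 3 are not separate results. The sum does not depend on that division, and its ratio was 0.680 (0.598 to 0.773). LOC_Os04g48880 held 81.5% of the sum in the mutant (77.4 to 85.1) and 75.6% in wild-type (72.0 to 79.1). LOC_Os10g38940 held 2.29% in the mutant (1.01 to 4.12) and 6.85% in wild-type (4.90 to 9.15). Counted as 1 unit, the hydroxylases leave 9 units in the pathway, of which 5 had intervals below 1. Relative to the phytoene synthase reads of the same library, the summed hydroxylase reads stood at 0.738 of wild-type (0.642 to 0.847).

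Zeaxanthin epoxidase (LOC_Os04g37619) had 6241 counts in the mutant and 7165 in wild-type, a ratio of 0.848 (0.820 to 0.877), the tightest interval among the 10. Both of its transcript models shared the direction, and their counts add up to whole numbers. The first model had 167 RPKM in the mutant and 194 RPKM in wild-type, a ratio of 0.865 (0.829 to 0.903). The second model had 124 RPKM in the mutant and 151 RPKM in wild-type, a ratio of 0.819 (0.774 to 0.867). Among the 3 of the 10 genes with several models, each of the 8 models had a ratio below 1. Models of a locus appear to divide its reads, so their ratios are not separate results from those of the 3 loci. The intervals of the models do not cover how the reads were divided.

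The other genes of carotenoid metabolism lay on both sides of 1. The list held 18 loci, of which 16 had a row and 13 passed the filter on low values. By their intervals, 5 of the 13 were higher and 3 were lower in the mutant, against 16.1% and 15.4% of all loci tested. These counts include LOC_Os03g44380, LOC_Os12g42280 and LOC_Os10g38940, which appear to share reads with related loci, so not all are separate results. The median log2 difference of the 13 was 0.09. By the size rule 1 was lower, against 1.01% of all loci tested, namely the hydroxylase LOC_Os10g38940 described above. Of the 5, LOC_Os02g43500 had 410 RPKM in the mutant and 326 RPKM in wild-type, a ratio of 1.26 (1.21 to 1.31), but it has neither a description nor the carotenoid KEGG term in the files, so nothing in them places it among carotenoid genes. Without it, 4 of 12 were higher and 3 lower by their intervals, and the median log2 difference was 0.02.

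Cytochrome P450 enzymes of family 97 also hydroxylate carotenoid rings, in Arabidopsis mainly on the way to lutein, and their loci had ratios above 1. LOC_Os02g57290, described as the 97A enzyme, had 3993 counts and 118 RPKM in the mutant, against 3057 counts and 92.8 RPKM in wild-type, a ratio of 1.27 (1.21 to 1.33) with divided reads. LOC_Os10g39930, a P450 placed by the deposited KEGG terms in carotenoid biosynthesis, had 380 counts and 20.7 RPKM in the mutant, against 227 counts and 12.7 RPKM in wild-type, a ratio of 1.63 (1.38 to 1.93). LOC_Os02g07680, described as the 97B enzyme, had 255 and 218 counts in the mutant and wild-type, a ratio of 1.14 (0.947 to 1.37). Of the reads of all 6 hydroxylase loci, the beta-hydroxylases held 8.16% in the mutant (7.42 to 8.95) and 14.4% in wild-type (13.3 to 15.5). Read shares depend on transcript length, and of the summed RPKM the beta-hydroxylases held 16.9% in the mutant and 28.3% in wild-type. LOC_Os02g57290 weighs most on the P450 side, with 3993 of 4628 counts in the mutant and 3057 of 3502 in wild-type. The beta-hydroxylase reads per P450 read were 0.0888 in the mutant and 0.168 in wild-type, and the ratio of these was 0.529 (0.462 to 0.606).

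Violaxanthin de-epoxidase works against zeaxanthin epoxidase in the xanthophyll cycle, by which leaves under strong light turn violaxanthin back into zeaxanthin. LOC_Os04g31040, described by the name of the Arabidopsis de-epoxidase gene *non-photochemical quenching 1*, had 951 counts and 53.0 RPKM in the mutant, against 754 counts and 43.1 RPKM in wild-type. Its ratio was 1.23 (1.11 to 1.35). De-epoxidase reads per epoxidase read were 0.152 in the mutant and 0.105 in wild-type, 1.45 times higher in the mutant (1.31 to 1.60). These genes were set against each other after their values had been seen, as were the other pairs formed within a library, 10 pairs in all.

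**Figure D3:**
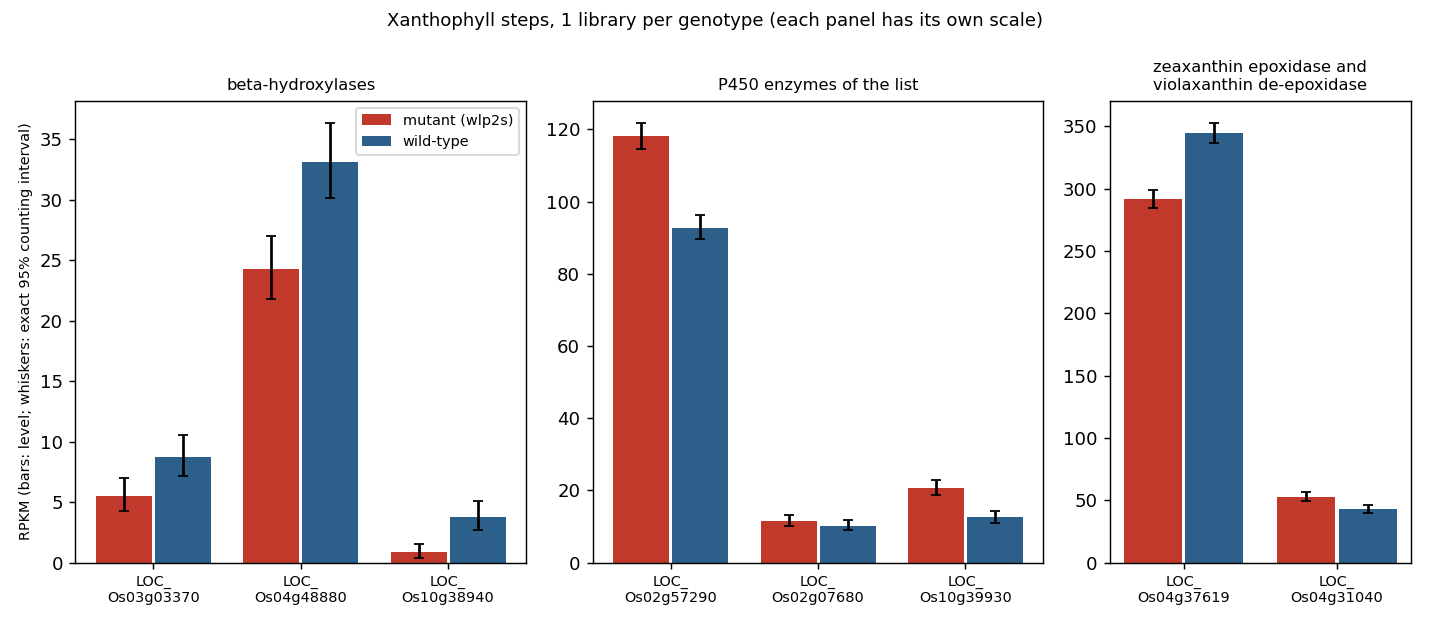
RPKM (vertical axes, each panel on its own scale from 0) of 3 beta-hydroxylase loci, 3 P450 loci of the list, and zeaxanthin epoxidase (LOC_Os04g37619) with violaxanthin de-epoxidase (LOC_Os04g31040), in the mutant (red, left bar) and wild-type (blue, right bar), with exact 95% counting intervals as whiskers and 1 library per genotype. The mutant bar is lower at the 3 beta-hydroxylases and at the epoxidase, and higher at the P450 loci and the de-epoxidase, although the interval of the ratio includes 1 at LOC_Os02g07680.

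Enzymes that cleave carotenoids were on both sides. LOC_Os02g47510, described as epoxycarotenoid dioxygenase 4, was as abundant as zeaxanthin epoxidase, with 280 RPKM in the mutant and 335 RPKM in wild-type, and its ratio was 0.836 (0.807 to 0.866). Carotenoid cleavage dioxygenase 1 (LOC_Os12g44310) had 305 RPKM in the mutant and 314 RPKM in wild-type, a ratio of 0.970 (0.938 to 1.00) whose interval included 1. The loci described as epoxycarotenoid dioxygenase 3, an enzyme of abscisic acid synthesis, were weak. LOC_Os03g44380 had 47 counts in the mutant and 23.5 in wild-type, a ratio of 1.95 (1.14 to 3.26), and LOC_Os12g42280 had 49 counts in the mutant and 82.5 in wild-type, a ratio of 0.578 (0.400 to 0.839). Their counts add up to whole numbers, 96 in the mutant and 106 in wild-type, and the ratio of the sum was 0.882 (0.662 to 1.17).

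**Figure D4:**
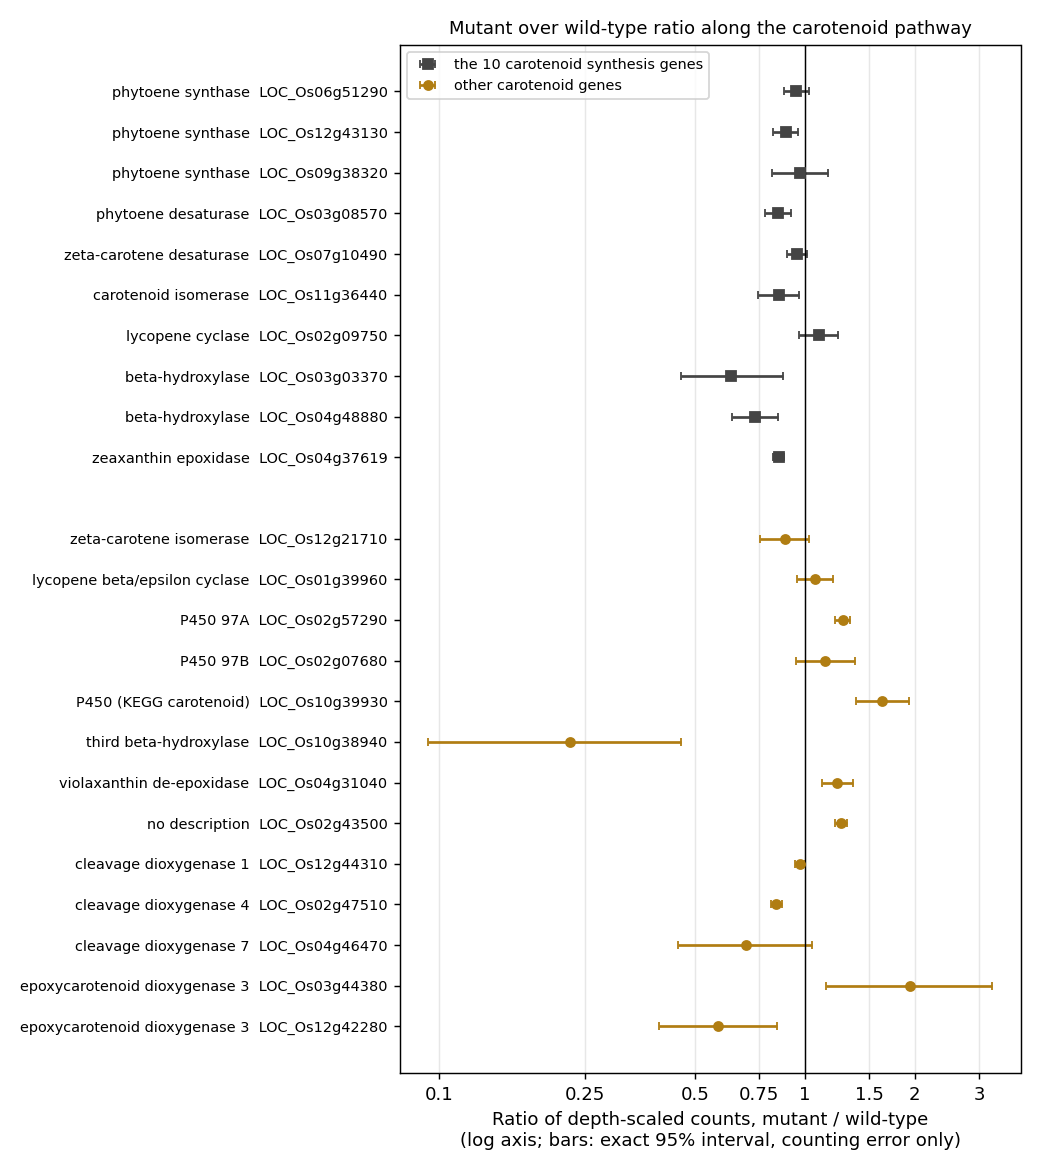
Ratio of depth-scaled counts, mutant over wild-type (horizontal log axis), of the 10 carotenoid synthesis genes in pathway order (grey squares, top) and of the 13 other carotenoid genes that passed the filter (ochre circles, below), with exact 95% intervals that cover counting error only. The squares lie left of 1 except the lycopene cyclase at 1.09, and among the circles the P450 locus LOC_Os10g39930 at 1.63 and the hydroxylase LOC_Os10g38940 at 0.228 lie on opposite sides.

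The neighbouring plastid pathways had medians nearer 0, but the summed reads of the first of them had a ratio close to that of the 10. The methylerythritol phosphate (MEP) pathway and the prenyl steps after it supply geranylgeranyl diphosphate to phytoene synthase. Their 12 loci had a median log2 difference of 0.03 and a ratio of summed counts of 0.893 (0.880 to 0.906), against 0.880 for the 10. Of the 36491 summed counts in the mutant, LOC_Os03g52170 gave 16124 and LOC_Os02g39160 gave 11398, at ratios of 0.925 and 0.863. By intervals, 4 of the 12 loci were lower and 2 higher in the mutant, against 15.4% and 16.1% of all loci tested. By the size rule, 1 was lower and 1 higher, against 1.01% and 1.79% of all loci tested. Both loci past the size rule are described as deoxyxylulose-5-phosphate synthase, the first enzyme of the MEP pathway. LOC_Os05g33840 had 8.56 RPKM in the mutant and 25.0 RPKM in wild-type, and LOC_Os07g09190 had 3.30 and 0.690 RPKM. Both have divided reads, so they may not be separate results. A further synthase of this kind, LOC_Os06g05100, had 29.1 RPKM in the mutant and 27.4 RPKM in wild-type. Its ratio was 1.06 (0.962 to 1.17), also with divided reads. The geranylgeranyl diphosphate synthase LOC_Os07g39270, the step just before phytoene synthase, had 31.0 RPKM in the mutant and 22.8 RPKM in wild-type. Its ratio was 1.36 (1.18 to 1.57), with divided reads. The reductoisomerase LOC_Os01g01710 went the other way, with 184 RPKM in the mutant and 252 RPKM in wild-type, a ratio of 0.730 (0.697 to 0.764). For chlorophyll synthesis, the 14 loci had a median log2 difference of -0.05 and a ratio of summed counts of 0.964 (0.946 to 0.981). By their intervals, 4 were lower and 2 higher, against the same 15.4% and 16.1% of all loci tested. These 14 loci were picked by words in their descriptions, and none is described as chlorophyll synthase or chlorophyllide a oxygenase. Of their 22789 counts in the mutant, the magnesium chelatase subunit LOC_Os03g20700 gave 12258, at a ratio of 1.02 (0.997 to 1.05). The protochlorophyllide oxidoreductase LOC_Os04g58200 passed the size rule, with 3 counts in the mutant and 36 in wild-type, a ratio of 0.0811 (0.0160 to 0.257). Whether these values differ from those of the carotenoid synthesis genes was not tested, since there is 1 library per genotype.

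The locus names place the 10 genes on 8 chromosomes. A plastid GO term stood in the deposited annotation of each of the 10, against 14.0% of the loci tested, and the KEGG term for carotenoid biosynthesis was given to 7 of them. These terms restate the choice of the genes as plastid enzymes of the pathway. Counts were whole numbers in both libraries at 7 of the 10, and the exceptions were the lycopene cyclase and both beta-hydroxylases.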

How the data were processed

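Leaf RNA of 1 *wlp2s* library and 1 wild-type library was sequenced single-end. TopHat, Cufflinks and Cuffdiff are listed in the processing notes of the submitters. Their versions and roles, the genome build and the annotation are not given in the sources used here. The authors deposited estimated counts per transcript model, not normalized and with fractions where a read was split over several models or loci, and RPKM values in which the authors scaled each count to model length and to the column total. The mutant column is headed wlp2s, while the sample labels name no allele. A second deposited table, which holds the authors' fold changes, P-values and FDR with 4 value columns headed by other names, was not used.

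The 36450 models were summed to 26715 loci. Differences of log2(RPKM + 1) and count ratios with Clopper-Pearson intervals on rounded counts were computed with Python 3.11.15, numpy 2.4.6, pandas 2.3.3 and scipy 1.17.1. The procedure was tested on simulated whole-number counts with counting error only. That test does not cover divided reads or spread between plants. Whole numbers were judged with a tolerance of 0.001. The reads carry no molecular identifiers, so PCR copies are counted as reads. Members, lists and rules were chosen with earlier results of these data known. All 10 members are named, with other carotenoid genes past the filter whose interval leaves out 1, and in the neighbouring pathways the loci past the size rule. Other genes named were chosen after their values were seen. None of the 10 locus names was found in the RefSeq gene table. Alternatives covered pseudocount, filter, scaling, models, interval and size rule. Others, on shared hydroxylase reads on the sum without zeaxanthin epoxidase and on the list without LOC_Os02g43500, were added after the data were seen.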

Additional observations from a re-analysis of the deposited data

How the results depend on the processing

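No paired analysis was possible because each genotype has 1 library, and for the same reason no replicate could be left out. The count of carotenoid synthesis genes past the size rule, 0 in either direction, was the same under every pseudocount, filter, scaling and choice of model, and became 1 lower with a size rule of 0.58 (LOC_Os03g03370). The count with intervals below 1 was 6 under either other scaling and with the most abundant model, and 5 with a 99% interval or with the beta-hydroxylases as 1 unit. Their median log2 difference ran from -0.21 to -0.17. The summed reads of the 10 stood at 0.910 of wild-type without zeaxanthin epoxidase. The other carotenoid genes had 0 lower by size with a pseudocount of 5 or an RPKM of at least 5, and a median log2 difference of -0.0934 without a filter, against 0.09 with it. With a pseudocount of 5 or an RPKM of at least 5, 0 MEP loci were higher and 0 chlorophyll loci were lower by size, and 0 chlorophyll loci were lower with the most abundant model. With the most abundant model, LOC_Os06g51290 held 18.7% of phytoene synthase reads in the mutant and 18.0% in wild-type, LOC_Os12g43130 67.5% and 69.1%, and LOC_Os09g38320 13.8% and 12.9%, because LOC_Os06g51290 has 4 models. As shares of RPKM the same loci held 42.0% and 40.7%, 50.1% and 51.8%, and 7.91% and 7.49%, mutant before wild-type. Depth limits the beta-hydroxylase LOC_Os03g03370 most among the 10.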

Other observations

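The deposited KEGG term for carotenoid biosynthesis covers 20 loci, 7 of them among the 10 genes, and also takes in the turnover of abscisic acid. Of the 19 that passed the filter, 5 were higher and 6 lower in the mutant by their intervals, against 16.1% and 15.4% of all loci tested. The size rule was passed by 0 of the 19, against 2.8% of all loci tested. LOC_Os09g28390, described as a P450 of a family that in Arabidopsis inactivates abscisic acid, had 70.7 counts in the mutant and 43.5 in wild-type, a ratio of 1.58 (1.06 to 2.34), while its relative LOC_Os02g47470 had 334 and 295 counts, a ratio of 1.10 (0.940 to 1.29). LOC_Os10g04860, described as aldehyde oxidase 2, had 280 counts in the mutant and 216 in wild-type, a ratio of 1.26 (1.05 to 1.51) with divided reads. A further locus of that description, LOC_Os07g18120, had 59 counts in the mutant and 73.7 in wild-type. Its ratio of 0.780 (0.542 to 1.11) had an interval that included 1. The cyclase-like locus LOC_Os08g32630 had 583 counts in the mutant and 552 in wild-type, a ratio of 1.03 (0.914 to 1.16). These loci were chosen after their values were seen.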
